A study of Mus musculus with 8 samples.

Results

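The genes described here are 42 genes of the endoplasmic reticulum (ER), the compartment in which secreted and membrane proteins are made, folded and packed for export, and of the unfolded protein response, the program that adjusts this compartment to its load. They were taken by symbol from a list, as 42 of 23952 gene symbols in a table of RPKM values (read counts scaled by transcript length and sequencing depth) of mouse Lewis lung carcinoma, a transplantable lung tumor. For each symbol the transcript with the highest mean over all libraries was used. All 42 passed the filter on low values (RPKM of 1 or more in 2 or more libraries) and so were among the 13311 genes tested.

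The 8 libraries formed 4 groups of 2, all from tumors grown under the skin of both flanks of transgenic Col1a1-GFP mice, which express green fluorescent protein (GFP) with the collagen gene Col1a1. Injected tumor cells carried the red protein dTomato, and collagen labelled with an Alexa dye was put into the tumors 24 h before single cells were made. TAM were tumor-associated macrophages, which the submitters call M2, sorted without dTomato or GFP and positive for F4/80 and for the labelled collagen. Fibroblast were GFP-positive cells, LLC were dTomato-positive cells of the injected line, and Total tumor was the whole tumor. Strain, age and sex of the mice are not used here. Nothing in the labels tells whether the libraries of a group stem from separate animals, so the p-values given speak of the spread between the libraries at hand, which may be technical.

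Proteins enter the ER through the Sec61 channel, receive sugar chains from the oligosaccharyltransferase, fold with the help of chaperones and disulfide isomerases, and leave in vesicles coated with the COPII complex, while KDEL receptors bring escaped chaperones back. When unfolded proteins build up, the sensors IRE1, PERK and ATF6 act through the transcription factors XBP1, ATF4 and ATF6. XBP1 and ATF6 raise chaperones and degradation factors, and ATF4 raises amino acid synthesis genes and, through CHOP, genes linked to cell death. Fibroblasts make much collagen, whose folding needs ER proteins of its own, such as the prolyl isomerase FKBP10.

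Promoter sequence was available for 34 of the 42 genes, as windows of 300 bases (250 before to 50 after the transcription start) from RefSeq, build GRCm38.p6. The expression table uses an earlier build, so the windows were matched by symbol alone. 4 motifs of the unfolded protein response were searched on both strands. The genes were listed for the same response, so a share above that of all symbols is not independent of this choice. Below, lower case is the surrounding sequence on the strand of the gene, 5′ to 3′, and capitals mark the match, read directly or as the reverse complement of the motif. A match is a description of letters and is neither a proven binding site nor a cause of any level given here.

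The UPRE letters TGACGTGG, associated with XBP1 and ATF6, were found in 3 genes (8.82% of the 34), against 0.714% of 27025 symbols with a window. These genes are shown first because all 3 were lower in TAM than in both other sorted populations, as given below. Of all genes tested, 8.74% were lowest in TAM by that rule. Calls of the other symbols with these letters were not counted, so no link between letters and level was tested. Of the other members lowest in TAM, Asns and Creb3l2 had windows without these letters, and Kdelr2 and Fkbp10 had no window. In Sec24d and Kdelr3 the match began 26 and 30 bases before the start, and in Sec23a it lay in the first 30 bases after it. The stretches are chr3:123267436-123267495 (plus strand) for Sec24d, chr15:79516348-79516407 (plus strand) for Kdelr3 and chr12:59011993-59012022 (minus strand) for Sec23a.
Sec24d: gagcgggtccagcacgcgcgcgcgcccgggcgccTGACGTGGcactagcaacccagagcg
Kdelr3: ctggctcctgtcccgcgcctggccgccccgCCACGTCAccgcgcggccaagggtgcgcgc
Sec23a: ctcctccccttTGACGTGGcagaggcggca

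The core of the composite element bound by ATF4, searched as TGATGNAA, was found in 4 genes (11.8% of the 34), against 4.51% of all symbols. They are shown because 3 of them, Asns, Chac1 and Trib3, were the only members called higher in LLC than in both TAM and Fibroblast. These calls against Fibroblast ended after upper-quartile rescaling. Of all genes tested, 15.8% were called higher in LLC than in both. Calls of the other symbols with this core were not counted, so here too no link between letters and level was tested. The match began 23 bases before the start in Asns (chr6:7693210-7693269, minus strand), 193 before it in Chac1 (chr2:119351023-119351082, plus strand) and 112 before it in Herpud1 (chr8:94386291-94386350, plus strand). In Trib3 it lay in the first 30 bases after the start (chr2:152344028-152344057, minus strand).
Asns: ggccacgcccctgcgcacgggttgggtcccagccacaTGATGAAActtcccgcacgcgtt
Chac1: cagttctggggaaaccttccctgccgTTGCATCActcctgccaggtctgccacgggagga
Trib3: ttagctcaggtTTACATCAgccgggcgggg
Herpud1: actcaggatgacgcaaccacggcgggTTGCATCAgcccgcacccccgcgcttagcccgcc

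The ER stress response element (ERSE), searched as CCAAT and CCACG with any 9 bases between them, was found in 7 genes (20.6% of the 34), against 0.137% of all symbols. These were Hspa5, Hsp90b1 (which held it in 2 places), Calr, Canx, Pdia6, Dnajc3 and Creld2. In the main fit described below, 34.7 to 42.9% of all genes tested were called between pairs of sorted populations. None of these 7 genes was called between any such pair. This did not hold in all alternative fits. Pdia6 and Hsp90b1 were called lower in TAM than in LLC after quantile normalization or length correction, and Dnajc3 was called in alternatives given below. Of the 7, 4 are printed beside the genes above. The match began 65 bases before the start in Hspa5 (chr2:34772005-34772064, plus strand), 162 before it in Calr (chr8:84847054-84847113, minus strand), 145 before it in Canx (chr11:50325779-50325838, minus strand) and 98 before it in Pdia6 (chr12:17266471-17266530, plus strand). The shorter ERSE-II, ATTGG and CCACG with any 1 base between them, was found in Herpud1 and Dnajb11 (5.88%, against 0.0444% of all symbols), in Herpud1 at chr8:94386353-94386412 (plus strand). The reverse complement of the last 5 letters of the UPRE is the CCACG that ends the ERSE, and none of the 34 windows held both.
Hspa5: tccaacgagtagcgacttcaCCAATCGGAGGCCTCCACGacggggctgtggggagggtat
Calr: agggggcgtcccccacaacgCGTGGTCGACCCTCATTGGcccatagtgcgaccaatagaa
Canx: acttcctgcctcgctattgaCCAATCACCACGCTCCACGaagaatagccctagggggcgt
Pdia6: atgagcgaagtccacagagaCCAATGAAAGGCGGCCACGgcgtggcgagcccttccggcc
Herpud1: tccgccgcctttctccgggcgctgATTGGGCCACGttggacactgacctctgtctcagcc

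The libraries differed in ways that touch the values below. Depth estimated from the steps of low values was 8.52 to 10.37 M reads in the libraries numbered 1 and 4.28 to 4.72 M reads in those numbered 2 (M, 10 to the power of 6). The 10 fibroblast markers stood at a median of 0.632% of the Fibroblast mean in TAM 1 and 2.785% in TAM 2, and the 12 macrophage markers at a median of 0.486% of the TAM mean in LLC 1 and 2.91% in LLC 2. Keratins and other epithelial markers summed to 25.8 RPKM in Fibroblast 1 and 191 RPKM in Fibroblast 2. All 12 macrophage markers were called higher in TAM than in Fibroblast and in LLC. All 10 fibroblast markers were called higher in Fibroblast than in TAM, and 8 of the 10 higher than in LLC. LLC itself held fibroblast markers at summed levels of 3741 and 5003 RPKM, against 24942 and 23323 RPKM in Fibroblast. All 6 pericyte markers were called higher in Fibroblast than in TAM and in LLC. Their sums were 2.14 and 3.74 RPKM in TAM, 178 and 115 in Fibroblast and 3.6 and 5.58 in LLC. The 8 endothelial markers summed to 15.7 and 31.6 RPKM in TAM and 69.4 and 57.5 in Fibroblast. In LLC they summed to 2.6 and 5.07 RPKM, and in Total tumor to 44.2 and 45.0. Of 7 tested, 6 were called higher in Fibroblast than in LLC. Against TAM, 3 were called higher and 1 lower in Fibroblast. Of 4 epithelial markers tested, Krt8 and Krt18 were called higher in LLC than in TAM and Fibroblast, and Krt19 was called higher in Fibroblast than in TAM and LLC. Markers of B and plasma cells, which hold much ER, summed to 33.5 to 75.6 RPKM in TAM, 41.4 to 50.2 in Fibroblast, 46.5 to 65.9 in LLC and 44.9 to 111.7 in Total tumor.

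Total tumor 2 stood apart from Total tumor 1 by transcript length. Of the ER genes, the 8 with transcripts under 1500 bases had a median log2 difference of 1.44 between Total tumor 2 and Total tumor 1, and the 9 over 4000 bases a median of -0.56. The rank correlation of length with this difference over the 42 genes was -0.84, as a description. In the sorted groups it ran the other way (0.57 in TAM, 0.48 in Fibroblast and 0.57 in LLC), and the points share the library pair. Short ER transcripts such as Ppib (797 and 318 RPKM in Total tumor 2 and Total tumor 1), Sec61b and Ddit3 had Total tumor values that spanned more than those of any sorted group.

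**Figure D1:**
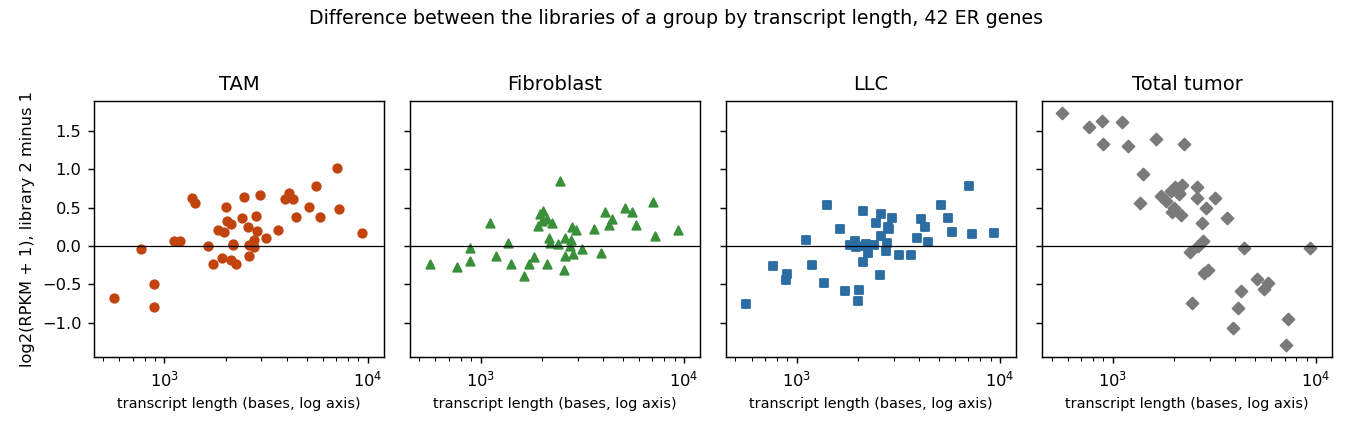
Each point is 1 of the 42 ER genes, with transcript length in bases on a log x axis and the difference in log2(RPKM + 1) between library 2 and library 1 of a group on the y axis. In Total tumor the points slope down from short to long transcripts (rank correlation -0.84), and in TAM, Fibroblast and LLC they slope up (0.57, 0.48 and 0.57).

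As a whole the ER genes were abundant in every library, with the lowest share in TAM. Their RPKM summed to 4037 and 4211 in TAM, 5209 and 5327 in Fibroblast, 5205 and 5161 in LLC and 4306 and 6139 in Total tumor, and Calr, Hspa5, P4hb, Ppib and Hsp90b1 held 42.4 to 47.4% of this in every library. As a share of the summed RPKM of all 23952 symbols, the 42 genes held 0.976 ± 0.108% in TAM, 1.61 ± 0.072% in Fibroblast, 1.55 ± 0.092% in LLC and 1.31 ± 0.046% in Total tumor (SD, n = 2 each). The TAM libraries lay under all others in this share. The exact permutation p was 0.333 against each group, the smallest that 2 against 2 libraries can give (two-sided). The same test gave 0.333 for Fibroblast and for LLC against Total tumor, so this p does not set TAM apart. In Total tumor, a bulk sample, fewer cells of a type and less RNA per cell cannot be told apart.

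Between the sorted populations, the highest and the lowest mean of an ER gene differed by a median of 0.74 on the scale of log2(RPKM + 1). The same range was 1.25 over all 13311 genes tested and 1.23 over the 6518 with a mean of at least 10 RPKM. It was under 1 for 27 ER genes (64.3%, against 36.7% of all genes tested) and over 2 for 6 of them (14.3%, against 26.1%). The lowest mean of the 3 sorted populations was in TAM for 28 of the 42, in Fibroblast for 7 and in LLC for 7. The same count over all genes was not made, so 28 of 42 is not read as a trait of the ER genes. All genes tested were themselves shifted between TAM and LLC, with a median log2 difference of -0.38, against -0.39 for the ER genes. Between TAM and Fibroblast the medians were 0.13 for all genes and -0.40 for the ER genes.

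**Figure D2:**
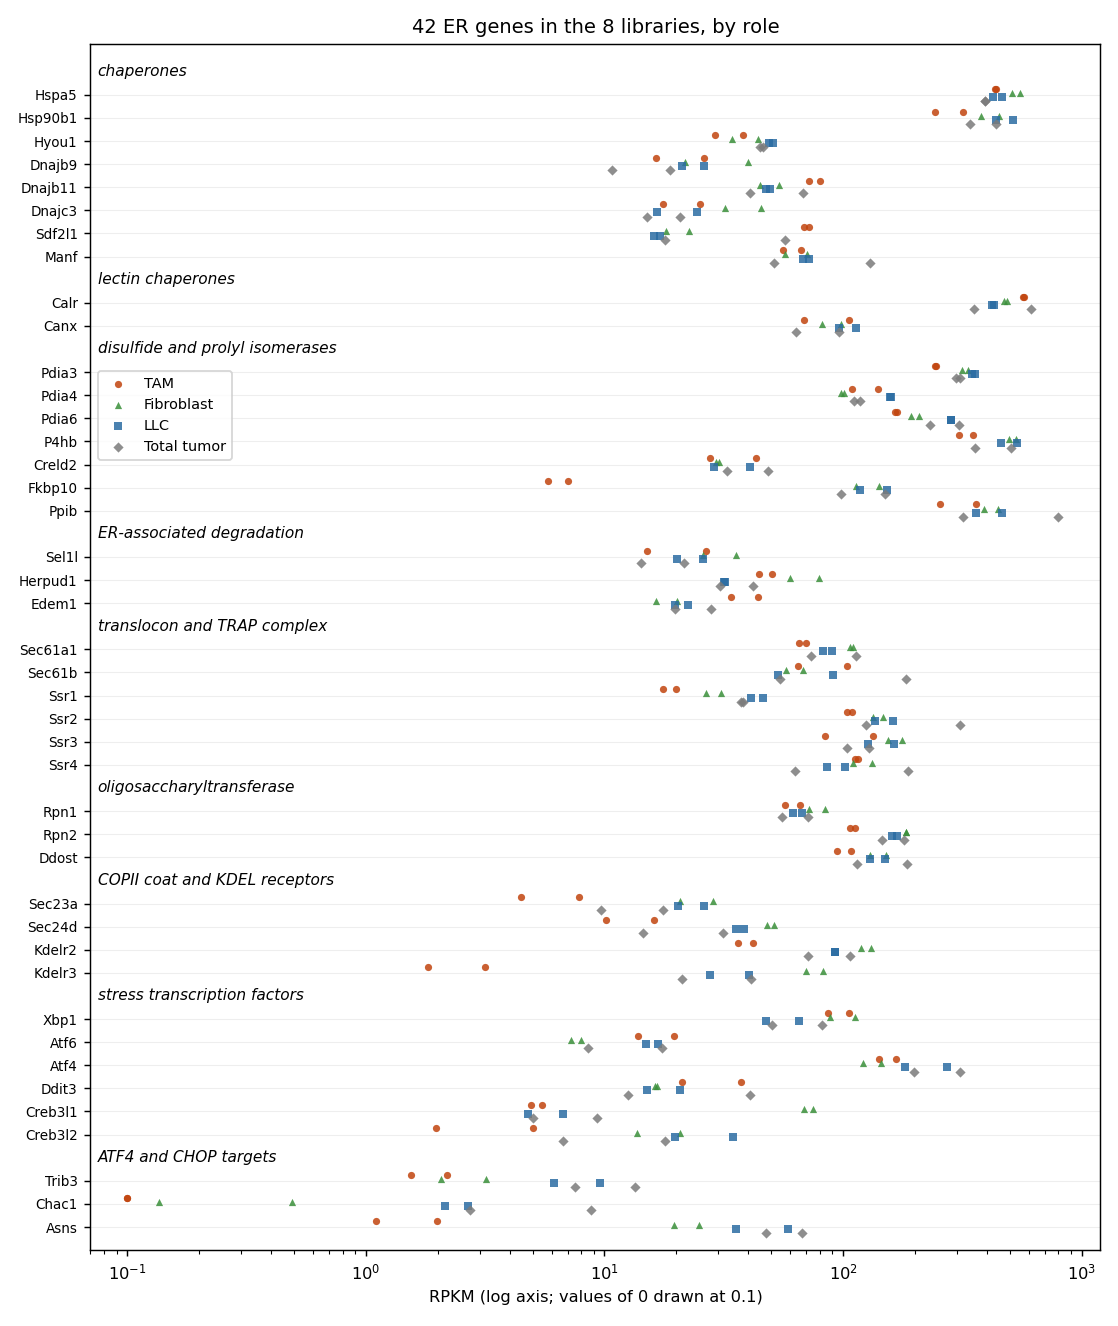
RPKM of each of the 42 ER genes in the 8 libraries on a log x axis, with genes on the y axis grouped by role, 1 point per library and colors and shapes for TAM, Fibroblast, LLC and Total tumor. Most chaperones, isomerases, translocon and oligosaccharyltransferase genes have overlapping or neighboring points, and TAM points lie far to the left for Fkbp10, Sec23a, Kdelr3, Creb3l2 and Asns, with Chac1 listed at 0 in TAM.

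A gene was called when its limma p, adjusted by Benjamini-Hochberg over the 13311 genes, was under 0.05. Between TAM and LLC, 2 ER genes were higher in TAM and 10 lower, where 42.9% of all genes tested were called (15.4% higher and 27.5% lower). Between TAM and Fibroblast, 2 were higher in TAM and 8 lower, against 34.7% of all genes (17.4% higher and 17.3% lower). Fibroblast and LLC differed in 6 ER genes, 3 higher in Fibroblast and 3 lower, against 38.6% of all genes (13% higher and 25.7% lower). The called shares of the ER genes were 28.6, 23.8 and 14.3%, under those of all genes, and this order turned with the scaling for both comparisons of TAM. After quantile normalization 50% of the ER genes were called between TAM and LLC, against 38.6% of all genes, and 42.9% between TAM and Fibroblast, against 34.8%. After upper-quartile rescaling 40.5% were called between TAM and Fibroblast, against 35% of all genes, and without a filter the shares were 23.8 and 17.5% there and 19 and 18.7% between TAM and LLC. The counts rest on few libraries. Without either Total tumor library, which enter the fit for the spread, they were 5 higher and 15 lower in TAM than in LLC, 4 and 12 in TAM than in Fibroblast, and 5 and 8 in Fibroblast than in LLC. Leaving out 1 sorted library gave 0 or 1 higher and 6 to 10 lower in TAM than in LLC, with 6 lower without TAM replicate 1 or LLC replicate 1. Against Fibroblast it gave 0 to 2 higher and 6 to 8 lower in TAM, with 0 higher without TAM replicate 2 or either Fibroblast library. Fibroblast against LLC was left with 1 or 2 higher and 0 or 1 lower without any 1 sorted library.

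Called against both other sorted populations, 7 ER genes were lowest in TAM (Asns, Creb3l2, Sec23a, Sec24d, Kdelr2, Kdelr3 and Fkbp10), where 8.74% of all genes met that rule. Another 2 were highest in TAM (Sdf2l1 and Edem1, against 11.4% of all genes), 2 highest in Fibroblast (Creb3l1 and Kdelr3, against 9%) and 3 highest in LLC (Asns, Trib3 and Chac1, against 15.8%). None was lowest in Fibroblast or in LLC, where 4.63% and 3.83% of all genes met the rule. These comparisons share libraries. The set lowest in TAM held 4 genes without TAM replicate 1, 13 after quantile normalization and 5 to 10 in the other alternatives run.

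The scale of the libraries bears on the direction of calls. The median log2 difference of the ER genes was -0.40 between TAM and Fibroblast, -0.39 between TAM and LLC and 0.02 between Fibroblast and LLC. That of all genes was 0.13, -0.38 and -0.46. After upper-quartile rescaling the medians of all genes were -0.10, -0.21 and -0.05, in the same order. The ER calls were then 5 higher and 10 lower in TAM than in LLC, where 17.4% of all genes were higher and 21.7% lower. They were 1 higher and 16 lower in TAM than in Fibroblast, where all genes stood at 14.1 and 20.9%. Between Fibroblast and LLC they were 9 higher and 0 lower, and the split of all genes itself turned, to 16.7% higher and 11.1% lower. After quantile normalization the ER calls were 2 and 19, 1 and 17, and 5 and 2 in these comparisons, and all genes stood at 17.9 and 20.7%, 17.1 and 17.7%, and 15.7 and 17.4%.

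**Figure D3:**
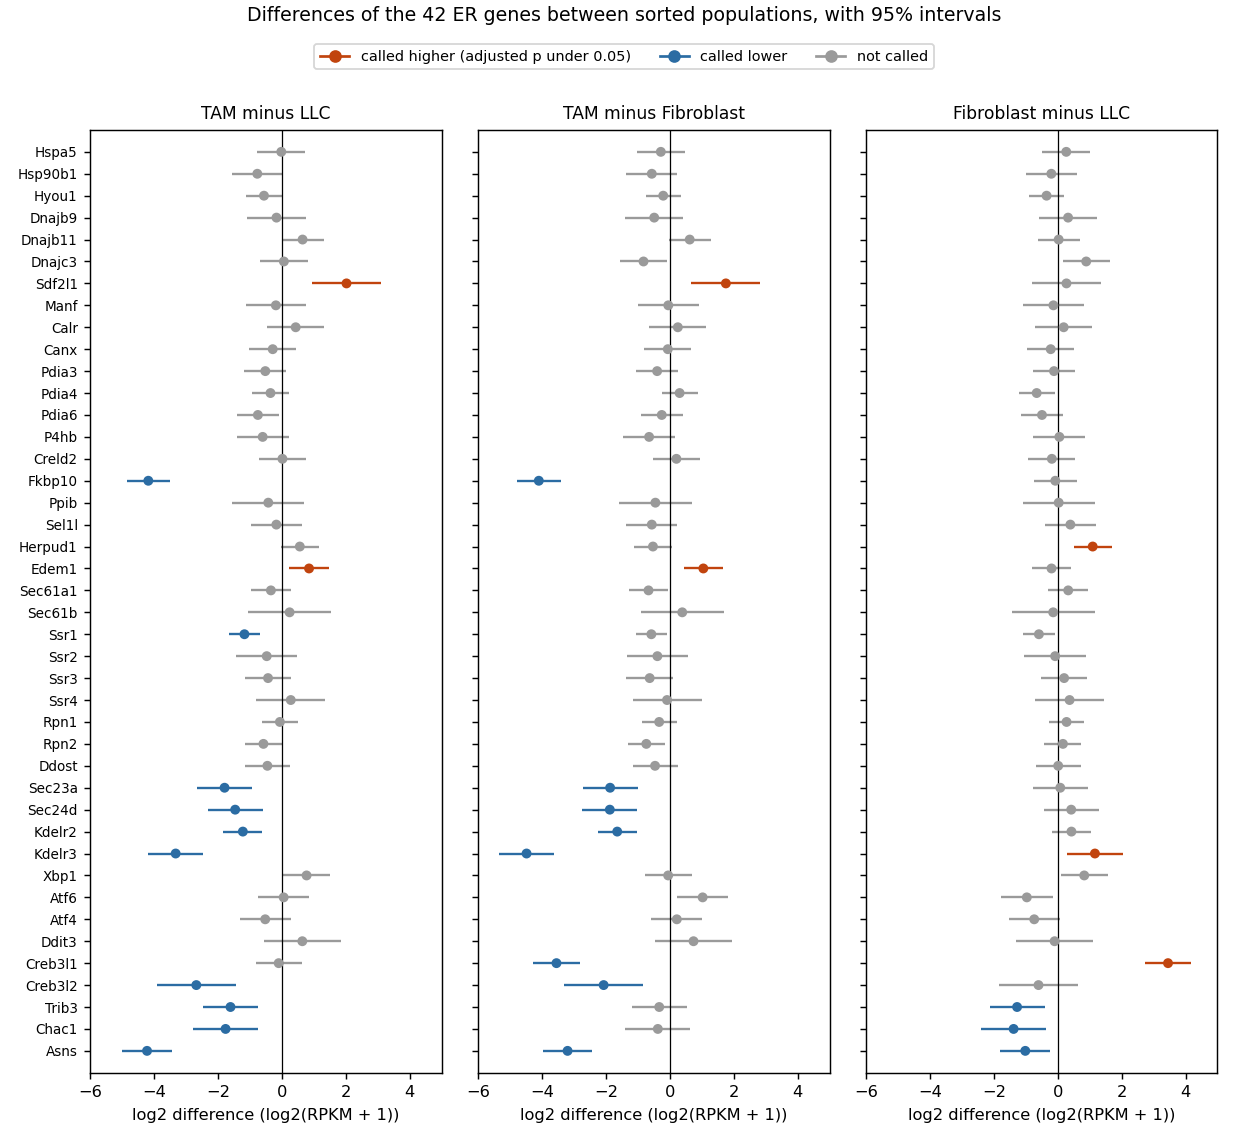
Log2 differences of the 42 ER genes on the scale of log2(RPKM + 1) (x axis) for TAM minus LLC, TAM minus Fibroblast and Fibroblast minus LLC, with 95% intervals of limma as lines and genes on the y axis. Called genes are colored. The intervals of Fkbp10, Kdelr3 and Asns lie far below 0 in both comparisons of TAM, and Creb3l1 lies far above 0 in Fibroblast minus LLC.

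Of the 8 chaperones and co-chaperones, 1 was called between sorted populations. Hspa5, the main Hsp70 chaperone of the ER and the factor that holds the stress sensors inactive, had 435 and 440 RPKM in TAM, 513 and 554 in Fibroblast, 424 and 465 in LLC and 392 and 392 in Total tumor. The Fibroblast libraries were the highest 2, and those of TAM lay within the LLC range. No call was made, with a log2 difference of -0.02 for TAM minus LLC (95% interval -0.77 to 0.73) and -0.29 for TAM minus Fibroblast (-1.03 to 0.46).

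Sdf2l1, part of the complex around Hspa5 that keeps unfolded proteins soluble, was the chaperone that differed. It had 68.9 and 71.9 RPKM in TAM, 18.1 and 22.5 in Fibroblast, 16.1 and 17.1 in LLC and 17.9 and 56.9 in Total tumor. Both TAM libraries lay above every other library. Its log2 difference was 2.02 (SE 0.46, limma adjusted p = 0.0102) for TAM minus LLC and 1.75 (SE 0.46, limma adjusted p = 0.0209) for TAM minus Fibroblast. Its transcript is short (1108 bases). The call against LLC ended without LLC replicate 1 or either TAM library or without a filter on low values (limma adjusted p 0.000204 to 0.0681 over the alternatives), and that against Fibroblast without any 1 TAM or Fibroblast library or without a filter (0.000311 to 0.132).

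The other chaperones were not called among the sorted populations. Dnajb11, a co-chaperone of Hspa5, had 80.4 and 72.2 RPKM in TAM, 44.9 and 54.0 in Fibroblast, 47.3 and 49.4 in LLC and 40.8 and 67.7 in Total tumor. Its TAM libraries were the highest 2 of all, without a call (log2 difference 0.65, limma adjusted p = 0.103 for TAM minus LLC). It was called higher in TAM than in LLC after upper-quartile rescaling or length correction, with only the groups compared, or without either Total tumor library (0.0161 to 0.304 over the alternatives). Dnajc3, an inhibitor of the kinase PERK, had 17.5 and 25.2 RPKM in TAM, 32.0 and 45.4 in Fibroblast, 16.6 and 24.4 in LLC and 20.7 and 15.1 in Total tumor. Both Fibroblast libraries lay above all others, and Fibroblast was called only against Total tumor (log2 1.07, limma adjusted p = 0.0308). That call ended in 5 of 19 alternatives, namely no filter, the fit of only the groups compared and without either Fibroblast library or Total tumor replicate 2 (0.00984 to 0.193), and the log2 was 1.66 after upper-quartile rescaling. Against LLC a call was made in 6 alternatives and against TAM in 2, both rescalings among them. Hsp90b1 had 243 and 318 RPKM in TAM, 379 and 449 in Fibroblast, 437 and 518 in LLC and 436 and 342 in Total tumor. Its TAM libraries were the lowest 2, without a call in any comparison of the main fit. After quantile normalization or length correction it was called lower in TAM than in LLC. Hyou1, Dnajb9 and Manf ran from 10.8 RPKM (Dnajb9 in Total tumor 2) to 130 RPKM (Manf in Total tumor 2) and were not called in any comparison.

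Neither lectin chaperone, which hold glycoproteins while they fold, was called. Calr, soluble calreticulin, had 569 and 574 RPKM in TAM, 474 and 488 in Fibroblast, 420 and 428 in LLC and 353 and 615 in Total tumor. Among the sorted libraries TAM lay on top without overlap, with a log2 difference of 0.43 from LLC (limma adjusted p = 0.405). Canx, the membrane-bound calnexin, ranged from 63.6 to 113.6 RPKM with overlapping groups.

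Of the 7 disulfide and prolyl isomerases and related folding factors, only Fkbp10 was called. Fkbp10, a prolyl isomerase that acts on collagen in the ER, had 5.81 and 7.06 RPKM in TAM, 141 and 114 in Fibroblast, 153 and 117 in LLC and 97.8 and 150.6 in Total tumor. The TAM libraries lay far under every other library, and the other groups overlapped. The log2 difference was -4.11 (SE 0.29, limma adjusted p = 0.000111) for TAM minus Fibroblast and -4.19 (SE 0.29, limma adjusted p = 0.000125) for TAM minus LLC, and both calls held in every alternative run.

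The general isomerases were not called in the main fit. After quantile normalization Pdia3, Pdia6 and P4hb were called lower in TAM than in LLC. Pdia3, which works with calreticulin on glycoproteins, had 246 and 243 RPKM in TAM, 314 and 333 in Fibroblast, 347 and 356 in LLC and 297 and 311 in Total tumor. Pdia6 had 166 and 169 RPKM in TAM, 193 and 207 in Fibroblast, 283 and 283 in LLC and 231 and 306 in Total tumor. TAM libraries were the lowest for both genes and no call was made (for Pdia6 in TAM minus LLC, log2 -0.76, limma adjusted p = 0.0626, with 0.00371 to 0.208 over the alternatives and a call in 6 of 19). P4hb, which is also the beta subunit of the enzyme that hydroxylates collagen prolines, had 305 and 350 RPKM in TAM, 533 and 496 in Fibroblast, 461 and 537 in LLC and 359 and 508 in Total tumor. Its TAM libraries lay under those of Fibroblast and LLC without a call (log2 -0.65, limma adjusted p = 0.199 against Fibroblast), although a call was made after upper-quartile rescaling, quantile normalization or without either Total tumor library (0.0288 to 0.482 over the alternatives). Ppib, a prolyl isomerase of collagen folding, had 360 and 255 RPKM in TAM, 445 and 389 in Fibroblast, 465 and 359 in LLC and 318 and 797 in Total tumor. Pdia4, another disulfide isomerase, had 108.5 and 139.9 RPKM in TAM, 98.5 and 100.7 in Fibroblast, 158.1 and 158.8 in LLC and 117.4 and 111.4 in Total tumor, with LLC on top and no call. Creld2, whose product assists disulfide exchange, ranged from 27.6 to 48.6 RPKM with overlapping groups.

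The 3 genes of ER-associated degradation, which returns misfolded proteins to the cytosol, gave 1 call in TAM and 1 in Fibroblast. Edem1, a mannosidase-like protein that picks out misfolded glycoproteins, had 33.9 and 44.1 RPKM in TAM, 16.5 and 20.1 in Fibroblast, 19.7 and 22.5 in LLC and 28.1 and 19.7 in Total tumor. Both TAM libraries lay above every other library. The log2 difference was 1.05 (SE 0.26, limma adjusted p = 0.0169) for TAM minus Fibroblast and 0.85 (SE 0.26, limma adjusted p = 0.0344) for TAM minus LLC. The call against LLC ended in 8 of 19 alternatives, namely the replicate block, no filter and the fits without any 1 sorted library (0.001 to 0.177). That against Fibroblast ended in 5 of 19, namely both rescalings and the fits without TAM replicate 2 or either Fibroblast library (0.00061 to 0.121).

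Herpud1, a scaffold of the degradation complex, had 44.5 and 50.4 RPKM in TAM, 59.7 and 79.6 in Fibroblast, 32.0 and 31.6 in LLC and 30.6 and 41.8 in Total tumor. The groups did not overlap among the sorted populations, with Fibroblast on top and LLC at the bottom. Fibroblast was called against LLC (log2 1.09, SE 0.25, limma adjusted p = 0.0128), and TAM against neither. That call ended without either LLC library or without Fibroblast replicate 2 (0.00153 to 0.102 over the alternatives). Sel1l, the adaptor of the Hrd1 ubiquitin ligase, ranged from 14.2 to 35.4 RPKM and was not called.

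In the translocon and the TRAP complex, which assists it, 1 of 6 genes was called. Ssr1, the alpha subunit of TRAP, had 17.6 and 19.9 RPKM in TAM, 26.5 and 30.7 in Fibroblast, 41.1 and 46.3 in LLC and 38.2 and 37.5 in Total tumor. The sorted groups did not overlap, with TAM lowest. It was called for TAM minus LLC (log2 -1.18, SE 0.21, limma adjusted p = 0.00333), and after correction for transcript length the log2 difference was -0.68 and the call ended (adjusted p 0.00152 to 0.096 over the alternatives). At 9333 bases its transcript is the longest of the 42.

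The other TRAP subunits and the channel had no call among sorted populations. Ssr2, the beta subunit, had 104 and 109 RPKM in TAM, 147 and 134 in Fibroblast, 162 and 137 in LLC and 125 and 311 in Total tumor. Sec61a1, the pore subunit of the channel, had 65.2 and 69.9 RPKM in TAM, 109.8 and 106.5 in Fibroblast, 89.7 and 82.7 in LLC and 73.1 and 113.5 in Total tumor. For both, the TAM libraries were the lowest of the sorted ones (Sec61a1 log2 -0.67, limma adjusted p = 0.0942 for TAM minus Fibroblast). Ssr3, Ssr4 and Sec61b overlapped between TAM and at least 1 other population.

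None of the 3 oligosaccharyltransferase subunits was called. Rpn2 had 107 and 113 RPKM in TAM, 184 and 184 in Fibroblast, 169 and 161 in LLC and 146 and 180 in Total tumor. Its TAM libraries lay under every other library, without a call (log2 -0.74, SE 0.25, limma adjusted p = 0.053 for TAM minus Fibroblast, and log2 -0.58, limma adjusted p = 0.0966 for TAM minus LLC). Over the alternatives the adjusted p against Fibroblast was 0.00504 to 0.2. Ddost had 108 and 94.7 RPKM in TAM, 152 and 129 in Fibroblast, 150 and 129 in LLC and 115 and 186 in Total tumor, with TAM lowest of the sorted libraries and no call. Rpn1 ranged from 55.3 to 83.9 RPKM.

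All 4 genes of the COPII coat and the KDEL receptors were lower in TAM than in Fibroblast and than in LLC. Kdelr3, a receptor that returns chaperones with a KDEL tail from the Golgi, had 1.82 and 3.17 RPKM in TAM, 82.8 and 70.1 in Fibroblast, 27.7 and 40.5 in LLC and 21.1 and 41.2 in Total tumor. The 3 sorted populations did not overlap. It differed by a log2 of -4.49 (SE 0.37, limma adjusted p = 0.000136) for TAM minus Fibroblast, the largest difference of any ER gene between sorted populations, and by -3.33 (SE 0.37, limma adjusted p = 0.000387) for TAM minus LLC. Both calls held in every alternative run. Fibroblast was higher than LLC (log2 1.16, limma adjusted p = 0.0419), a call that ended in 8 of 19 alternatives (0.0091 to 0.225), among them the fits without any 1 sorted library.

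Kdelr2, the related receptor, had 36.2 and 41.8 RPKM in TAM, 131 and 119 in Fibroblast, 92.2 and 92.7 in LLC and 71.3 and 107.3 in Total tumor. Its order was that of Kdelr3, at a smaller difference. The log2 was -1.65 (SE 0.26, limma adjusted p = 0.00191) for TAM minus Fibroblast, held in every alternative, and -1.23 (SE 0.26, limma adjusted p = 0.00764) for TAM minus LLC. Against LLC the call ended without TAM replicate 1 or LLC replicate 1 (0.000976 to 0.057 over the alternatives).

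Sec23a and Sec24d encode the inner COPII coat, with Sec24 proteins binding cargo and SEC23A needed for collagen export in human cells. Sec23a had 4.45 and 7.80 RPKM in TAM, 20.8 and 28.6 in Fibroblast, 20.4 and 26.2 in LLC and 17.6 and 9.67 in Total tumor. Sec24d had 10.1 and 16.1 RPKM in TAM, 51.6 and 48.1 in Fibroblast, 35.7 and 38.5 in LLC and 31.3 and 14.4 in Total tumor. In both genes TAM lay under all Fibroblast and LLC libraries, and Sec24d in Total tumor 2 fell within the TAM range. For TAM minus Fibroblast the log2 was -1.87 (SE 0.37, limma adjusted p = 0.00538) for Sec23a and -1.88 (SE 0.37, limma adjusted p = 0.00542) for Sec24d. For TAM minus LLC it was -1.80 (limma adjusted p = 0.00622) and -1.47 (limma adjusted p = 0.0154). Of these 4 calls, Sec23a against Fibroblast ended without Fibroblast replicate 2 (0.00156 to 0.0592 over the alternatives). The Sec24d call against LLC ended without TAM replicate 1 or either LLC library or without a filter on low values (0.00206 to 0.105). Sec23a, Sec24d and Kdelr3 are the members whose promoter windows held the UPRE letters printed above.

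**Figure D4:**
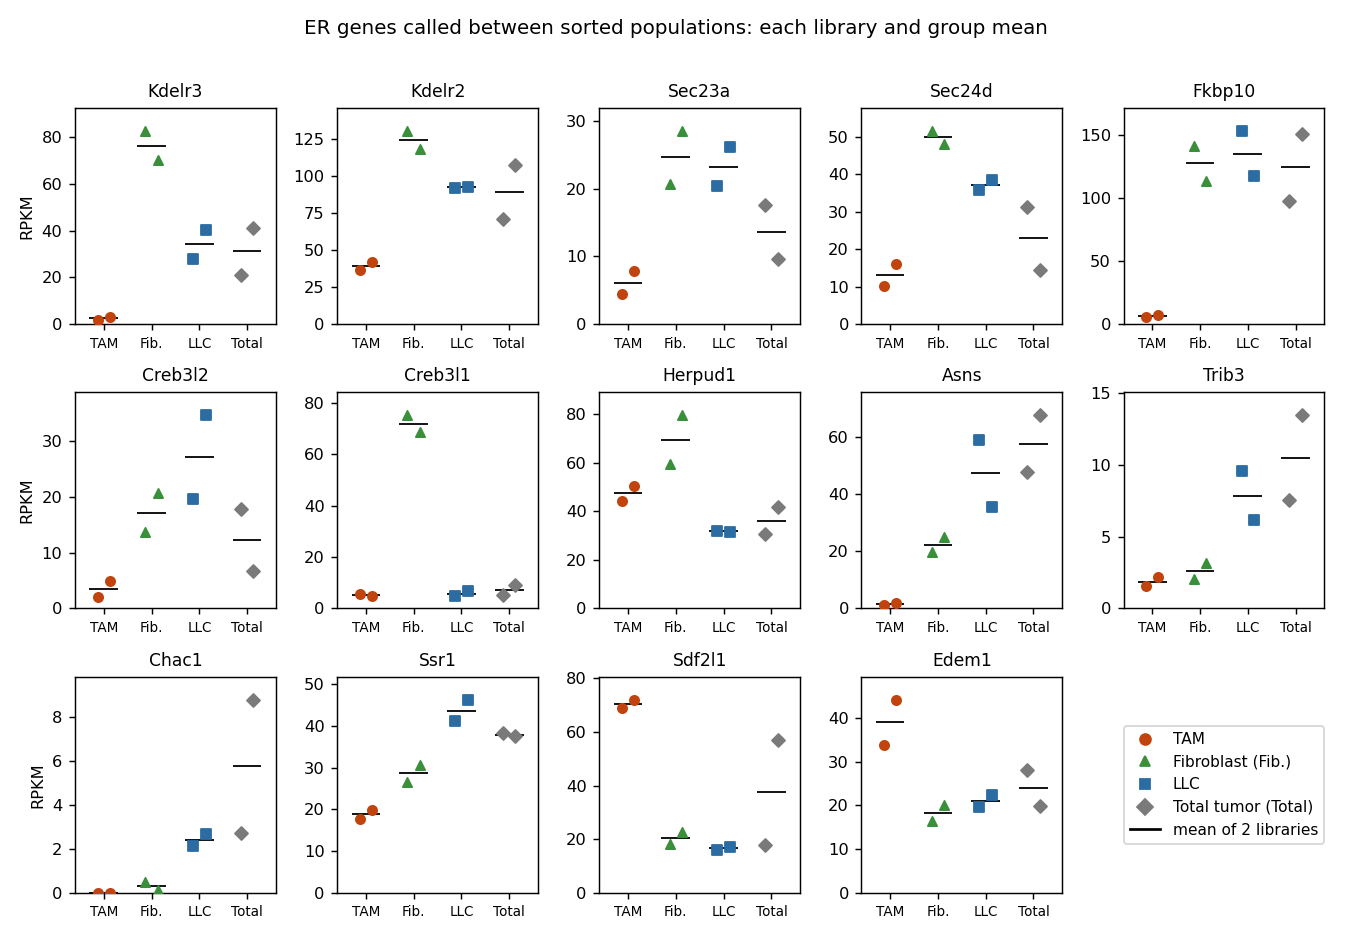
RPKM in each library (y axis, from 0) of the 14 ER genes called between sorted populations, with TAM, Fibroblast, LLC and Total tumor on the x axis and lines at group means of 2 libraries. TAM points lie near 0 for Kdelr3, Fkbp10 and Asns, Creb3l1 is high only in the 2 Fibroblast libraries (68.7 and 75.2 RPKM), and Sdf2l1 and Edem1 are highest in TAM.

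Of the 6 stress transcription factors, Creb3l1 and Creb3l2 were called between sorted populations. Creb3l1 (OASIS), a membrane-bound factor that is cut and freed like ATF6 and is known for its part in collagen production in bone, had 5.47 and 4.94 RPKM in TAM, 75.2 and 68.7 in Fibroblast, 4.76 and 6.70 in LLC and 5.04 and 9.27 in Total tumor. Both Fibroblast libraries stood far above every other library, and TAM, LLC and Total tumor overlapped. The log2 difference was -3.56 (SE 0.31, limma adjusted p = 0.000154) for TAM minus Fibroblast and 3.45 (SE 0.31, limma adjusted p = 0.00037) for Fibroblast minus LLC, held in every alternative run. TAM minus LLC was -0.10 (95% interval -0.83 to 0.62).

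Creb3l2, its closest relative, which drives Sec23a in cartilage, had 1.98 and 4.99 RPKM in TAM, 13.6 and 20.7 in Fibroblast, 19.7 and 34.6 in LLC and 17.9 and 6.72 in Total tumor. TAM lay under every other library, and Fibroblast and LLC overlapped. It was lower in TAM than in LLC by a log2 of -2.68 (SE 0.53, limma adjusted p = 0.00529) and than in Fibroblast by -2.08 (SE 0.53, limma adjusted p = 0.0181). The first call held in every alternative, and the second ended without TAM replicate 1 or either Fibroblast library or without a filter (0.00418 to 0.139).

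Xbp1, Atf6, Atf4 and Ddit3 were not called between any 2 groups. Xbp1, whose messenger RNA is spliced by IRE1, had 86.8 and 105.8 RPKM in TAM, 87.9 and 112.8 in Fibroblast, 47.4 and 65.5 in LLC and 50.5 and 81.5 in Total tumor. Its LLC libraries lay under those of TAM and Fibroblast, with log2 0.77 for TAM minus LLC (limma adjusted p = 0.0861) and 0.83 for Fibroblast minus LLC (limma adjusted p = 0.0739). Without either Total tumor library, or after upper-quartile rescaling, both passed (0.0277 to 0.366 over the alternatives for TAM minus LLC and 0.0111 to 0.335 for Fibroblast minus LLC). The table gives 1 value per transcript and does not measure splicing by IRE1.

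Atf6, itself a sensor, had 13.8 and 19.6 RPKM in TAM, 7.23 and 7.97 in Fibroblast, 14.97 and 16.8 in LLC and 17.4 and 8.55 in Total tumor. The Fibroblast libraries were the lowest 2, with log2 1.03 for TAM minus Fibroblast (limma adjusted p = 0.0545) and -0.97 for Fibroblast minus LLC (limma adjusted p = 0.0589). Each passed in 4 of 19 alternatives, namely the length correction, the fit of only the groups compared and without either Total tumor library (0.00055 to 0.251 and 0.00545 to 0.388). Atf4 had 167 and 142 RPKM in TAM, 144 and 122 in Fibroblast, 272 and 181 in LLC and 198 and 311 in Total tumor. Ddit3, which encodes CHOP, had 37.2 and 21.1 RPKM in TAM, 16.5 and 16.3 in Fibroblast, 20.8 and 15.1 in LLC and 12.6 and 40.8 in Total tumor. LLC values of Atf4 lay above those of TAM and Fibroblast, while Ddit3 values of TAM lay above those of Fibroblast and LLC, each without a call.

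The 3 listed members that are targets of ATF4 and CHOP were higher in LLC than in TAM and than in Fibroblast. Of all genes tested, 27.5% were lower in TAM than in LLC and 25.7% lower in Fibroblast than in LLC. Other targets of ATF4, given below, went both ways. Asns, asparagine synthetase, had 1.10 and 1.98 RPKM in TAM, 19.6 and 24.9 in Fibroblast, 58.9 and 35.6 in LLC and 47.6 and 67.5 in Total tumor. The sorted groups did not overlap, with TAM lowest and LLC highest. The log2 was -4.23 (SE 0.34, limma adjusted p = 0.00014) for TAM minus LLC and -3.21 (SE 0.34, limma adjusted p = 0.000252) for TAM minus Fibroblast, both held in every alternative. Fibroblast was lower than LLC by a log2 of -1.02 (limma adjusted p = 0.0454), which ended in 11 of 19 alternatives, among them those without any 1 sorted library other than LLC replicate 2 (0.0287 to 0.267). It was -0.67 without LLC replicate 1, -0.53 after upper-quartile rescaling and -0.65 after quantile normalization.

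Trib3, a pseudokinase that dampens the response, had 1.54 and 2.18 RPKM in TAM, 2.06 and 3.19 in Fibroblast, 9.57 and 6.14 in LLC and 7.51 and 13.4 in Total tumor. Chac1, which breaks down glutathione, was listed at 0 in both TAM libraries, with 0.491 and 0.135 RPKM in Fibroblast, 2.15 and 2.68 in LLC and 2.74 and 8.78 in Total tumor. LLC lay above TAM and Fibroblast without overlap in both genes. Trib3 was lower in TAM than in LLC (log2 -1.61, limma adjusted p = 0.0102), and this ended without TAM replicate 1 or LLC replicate 1 (0.00375 to 0.0805). Fibroblast minus LLC was -1.28 for Trib3 (limma adjusted p = 0.0294), a call that ended in 7 of 19 alternatives, among them those without any 1 library of Fibroblast or LLC (0.0118 to 0.182). Chac1 was called lower in TAM (limma adjusted p = 0.0141) and in Fibroblast (limma adjusted p = 0.0399) than in LLC. The first ended in 6 of 18 alternatives, among them those without any 1 library of TAM or LLC (0.000981 to 0.0906), and the second in 11 of 18, among them those without any 1 sorted library (0.00337 to 0.197). At its level 1 read counts, since 1 read on a transcript of 2 kb was 0.0482 to 0.117 RPKM, so Chac1 is read as low and not as absent in TAM and Fibroblast.

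Signal from other cells was set beside the genes lower in TAM. The 8 ER genes called lower in TAM than in Fibroblast stood at 2.38 to 29.1% of the Fibroblast mean in TAM 1 and at 4.14 to 33.6% in TAM 2. The 10 fibroblast markers stood at 0.315 to 1.32% in TAM 1 and at 2.19 to 3.15% in TAM 2, and none was at 0. The lowest ER gene was Kdelr3, at 2.38% in TAM 1 and 4.14% in TAM 2, and the highest was Kdelr2 at 29.1 and 33.6%. All 8 thus lay above the highest fibroblast marker in each TAM library. The part of fibroblast RNA in the remaining TAM levels was not tested. Fibroblast markers also moved with TAM minus LLC, where 5 of the 10 were called lower in TAM (median log2 -1.64 over the 10), with sums of 136 and 670 RPKM in TAM and 3741 and 5003 RPKM in LLC. Their part in the ER genes called lower in TAM than in LLC was not tested. Of 16 genes induced by tissue dissociation, 6 were higher and 1 lower in TAM than in LLC, and 1 was higher and 2 lower in TAM than in Fibroblast, with summed levels of 5882 and 3362 RPKM in TAM, 5578 and 2237 in Fibroblast, 1429 and 1058 in LLC and 1830 and 896 in Total tumor. Their part in the levels of the stress genes was not tested.

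**Figure D5:**
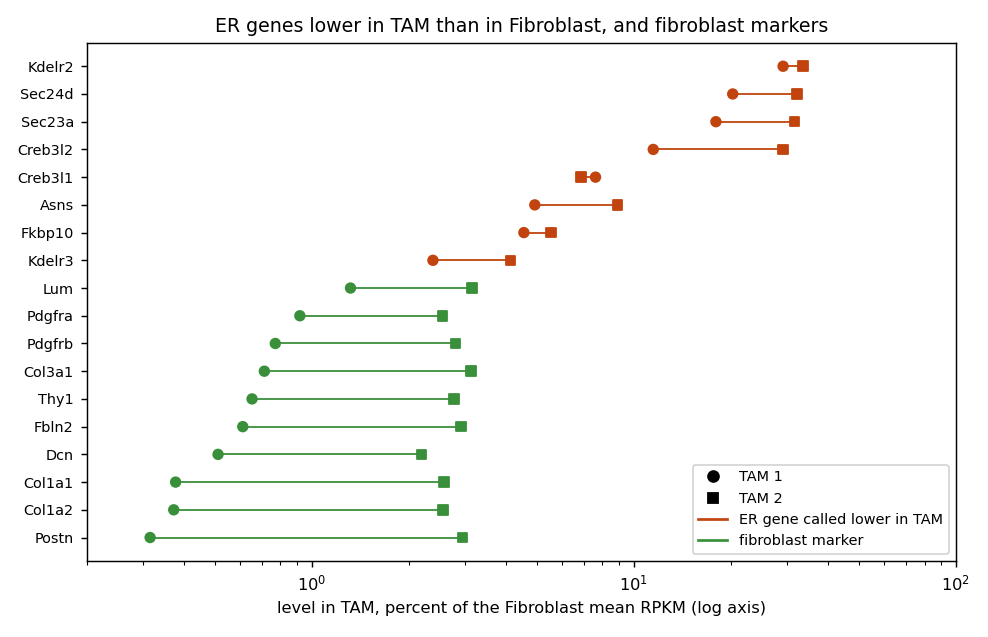
Level in TAM 1 (circles) and TAM 2 (squares) as a percent of the Fibroblast mean RPKM, on a log x axis, for the 8 ER genes called lower in TAM than in Fibroblast and the 10 fibroblast markers (y axis). All ER genes lie above the highest fibroblast marker of the same library (1.32% in TAM 1 and 3.15% in TAM 2).

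Lists of 186 further genes of the same pathways, of which 182 were tested, gave 13 higher and 49 lower in TAM than in LLC (34.1% called, against 42.9% of all genes), 19 higher and 36 lower in TAM than in Fibroblast (30.2%, against 34.7%), and 18 higher and 25 lower in Fibroblast than in LLC (23.6%, against 38.6%). After upper-quartile rescaling these were 26 and 38, 10 and 48, and 36 and 7. These lists were drawn up with results of these libraries known. Of 36 other ER folding genes, 18 were lower in TAM than in LLC and 3 higher. Against Fibroblast, 16 were lower in TAM and 3 higher. The median log2 differences were -1.14 and -0.71, and the called shares 58.3 and 52.8%, against 42.9 and 34.7% of all genes. Serpinh1 (HSP47), the collagen chaperone, averaged 26.8 ± 12.5 RPKM in TAM, 1142 ± 86.0 in Fibroblast and 374 ± 14.03 in LLC (SD, n = 2 each). Its log2 was -5.44 for TAM minus Fibroblast (limma adjusted p = 0.000106) and -3.83 for TAM minus LLC (limma adjusted p = 0.000239). Rcn1, a calcium-binding ER protein, averaged 2.38 ± 0.241 RPKM in TAM, 91.2 ± 1.05 in Fibroblast and 31.2 ± 2.53 in LLC, and was lower in TAM than in both (limma adjusted p = 0.000104 and 0.000119). Fkbp9 in TAM minus Fibroblast (log2 -4.67) and the prolyl isomerase Ppic in TAM minus LLC (log2 -3.72) followed. These calls held in every alternative run.

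Some folding genes lay the other way. Erp29, an ER protein of the disulfide isomerase family, averaged 222 ± 32.7 RPKM in TAM, 76.8 ± 8.57 in Fibroblast and 68.9 ± 3.68 in LLC, and was higher in TAM than in Fibroblast (limma adjusted p = 0.0245) and in LLC (limma adjusted p = 0.0145). Without any 1 library of TAM or Fibroblast the first call ended (0.000723 to 0.149 over the alternatives), and without either LLC library or TAM replicate 1 the second (0.0005 to 0.0867), and both ended without a filter on low values. Rcn3 was higher in TAM than in LLC (log2 1.70) and far higher in Fibroblast than in LLC, at 357 ± 75.6 RPKM in Fibroblast and 19.4 ± 1.65 in LLC (log2 4.12, limma adjusted p = 0.000321). Its level in TAM thus lay between those of LLC and Fibroblast, so Rcn3 lay the other way only against LLC. Fibroblast minus LLC gave 6 higher and 7 lower of the 36, among them the prolyl isomerases Fkbp14 (log2 3.59) and Fkbp7 (log2 2.49) and, lower, the sugar-trimming glucosidase Mogs (log2 -1.67). After upper-quartile rescaling that split was 10 and 1. The called share without rescaling was 36.1%, against 38.6% of all genes.

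Other targets of ATF4 went both ways. Of 27, 12 were lower in TAM than in LLC and 4 higher, 5 lower in TAM than in Fibroblast and 6 higher, and 10 lower in Fibroblast than in LLC and 5 higher. Over the alternatives these ran from 6 to 15 and 1 to 6, from 3 to 6 and 2 to 7, and from 4 to 14 and 1 to 6. After upper-quartile rescaling TAM against Fibroblast was 6 lower and 3 higher, and Fibroblast against LLC was 5 lower and 5 higher. Without rescaling the called shares in the 3 comparisons were 59.3, 40.7 and 55.6%, against 42.9, 34.7 and 38.6% of all genes. The serine synthesis enzyme Phgdh averaged 2.26 ± 0.983 RPKM in TAM, 2.46 ± 0.109 in Fibroblast and 24.8 ± 4.91 in LLC (log2 -3.01 for TAM minus LLC, limma adjusted p = 0.000606). The amino acid transporter Slc7a5 averaged 7.63 ± 1.09 RPKM in TAM, 10.6 ± 1.61 in Fibroblast and 65.0 ± 18.1 in LLC (log2 -2.91 for TAM minus LLC, limma adjusted p = 0.0003). Shmt2, a mitochondrial serine enzyme, had a log2 of -2.18 for TAM minus LLC, and Mthfd2, of the same folate pathway, -2.02 for Fibroblast minus LLC. Higher in TAM than in LLC were the stress factor Atf3 (log2 3.09, limma adjusted p = 0.00901), with a mean of 180 ± 103 RPKM in TAM, 88.8 ± 55.4 in Fibroblast and 19.9 ± 10.8 in LLC, Cebpb (log2 2.03) and the transaminase Gpt2 (log2 1.62). The Atf3 call ended without TAM replicate 1 or LLC replicate 2 or without a filter, as did that of Cebpb. Atf3 can also be induced by tissue dissociation, though it was not among the dissociation genes counted above. Atf5 was lower in TAM than in Fibroblast (log2 -2.79, limma adjusted p = 0.00062), and Slc3a2, the partner of Slc7a5, was higher (log2 1.98, limma adjusted p = 0.00352).

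Among 34 tested genes of COPII, cargo receptors and COPI, 8 were lower and 0 higher in TAM than in LLC by limma (10 and 2 at an unadjusted p under 0.05). In TAM against Fibroblast, 9 were lower and 1 higher. The called shares were 23.5 and 29.4%, against 42.9 and 34.7% of all genes, of which 27.5 and 17.3% were lower. Median log2 differences of the list were -0.28 and -0.32, against -0.38 and 0.13 for all genes. Over the alternatives the lower counts ran from 3 to 11 and from 5 to 13, and upper-quartile rescaling gave 6 lower and 3 higher against LLC and 13 lower and 1 higher against Fibroblast. Sar1a, the GTPase that starts COPII assembly, averaged 34.6 ± 4.03 RPKM in TAM, 105 ± 0.412 in Fibroblast and 92.9 ± 6.95 in LLC, and was lower in TAM than in Fibroblast (log2 -1.58, limma adjusted p = 0.000925) and in LLC (log2 -1.40, limma adjusted p = 0.00177). Lman1, the cargo receptor ERGIC-53, had a log2 of -1.72 for TAM minus LLC. Ctage5, a factor for large cargo, was the gene higher in TAM than in Fibroblast (log2 1.22). These calls held in every alternative.

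Of 16 sensors and regulators of the response, 2 were higher and 2 lower in TAM than in LLC, and 5 higher and 3 lower in TAM than in Fibroblast. After upper-quartile rescaling these were 6 and 1, and 1 and 3, and over the alternatives the higher counts ran from 1 to 6 and from 0 to 5. Mbtps1, the protease that cuts ATF6 and the CREB3L factors, averaged 17.8 ± 4.04 RPKM in TAM, 47.0 ± 1.45 in Fibroblast and 93.1 ± 0.168 in LLC, lower in TAM than in LLC (log2 -2.34, limma adjusted p = 0.000248) and in Fibroblast (log2 -1.37, limma adjusted p = 0.00237). Ppp1r15a (GADD34), which reverses the translation block, was higher in TAM than in LLC (log2 1.93, limma adjusted p = 0.00245). Its means were 79.1 ± 25.8 RPKM in TAM, 45.6 ± 15.6 in Fibroblast and 19.5 ± 0.724 in LLC. Ppp1r15a was not among the dissociation genes counted above, and the part of tissue dissociation in its level was not tested. Of 23 degradation genes, 2 were higher and 1 lower in TAM than in LLC and also 2 and 1 in TAM than in Fibroblast, with 0 to 5 and 0 to 4 higher over the alternatives. Derl2, a channel component, was higher in both (log2 0.94 and 1.05), and these calls ended in 7 and 4 alternatives, among them those without any 1 library of the groups compared (limma adjusted p 0.00478 to 0.134 and 0.00329 to 0.132). Of 23 translocation and signal peptide genes, 2 were higher and 4 lower in TAM than in LLC, and 1 each in TAM than in Fibroblast, with 1 to 6 and 0 to 3 lower over the alternatives. Sec11c, a signal peptidase subunit, averaged 79.2 ± 1.55 RPKM in TAM, 17.4 ± 3.17 in Fibroblast and 23.9 ± 4.39 in LLC, higher in TAM than in both (limma adjusted p = 0.00146 and 0.00447). TAM against LLC called 25% of the sensors and regulators, 13% of degradation and 26.1% of translocation genes, against 42.9% of all genes. TAM against Fibroblast called 50, 13 and 8.7% of them, against 34.7% of all genes. Of 23 further glycosylation genes, 0 were higher and 4 lower in TAM than in LLC (1 and 5 at an unadjusted p under 0.05), led by Alg2 (log2 -1.67), and 1 each in TAM than in Fibroblast. The called shares of this list were 17.4 and 8.7%, against 42.9 and 34.7% of all genes. The lower counts ran from 2 to 5 and from 0 to 5 over the alternatives, and upper-quartile rescaling gave 2 higher and 2 lower against LLC and 0 higher and 5 lower against Fibroblast.

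Against the whole tumor, no ER gene was called in LLC cells. By limma 0 of 42 were called for LLC minus Total tumor, also 0 at an unadjusted p under 0.05, where 2.35% of all genes were called (0.0526% higher and 2.3% lower). Without Total tumor replicate 1, 1 was higher and 5 were lower in LLC. TAM minus Total tumor gave 0 higher and 7 lower (2 and 10 at an unadjusted p under 0.05), where 35.2% of all genes were called (11.3% higher and 23.9% lower), namely Trib3, Chac1, Asns, Ssr1, Kdelr2, Kdelr3 and Fkbp10, with log2 differences of -4.53 for Asns, -4.05 for Fkbp10 and -3.16 for Kdelr3 (limma adjusted p = 0.000371, 0.000371 and 0.00127). After upper-quartile rescaling it gave 5 higher and 6 lower. Without Total tumor replicate 1 it gave 2 and 16, and without Total tumor replicate 2 it gave 5 and 10. Chac1, Asns, Kdelr3 and Fkbp10 were called in every alternative run. In the fit of only the groups compared Trib3, Ssr1 and Kdelr2 lost their calls. Kdelr2 also lost it without either TAM library, and Ssr1 without TAM replicate 1, after upper-quartile rescaling and after quantile normalization.

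Fibroblast minus Total tumor gave 5 higher (Dnajc3, Herpud1, Creb3l1, Sec24d and Kdelr3) and 3 lower (Trib3, Chac1 and Asns), where 42.1% of all genes were called (12.1% higher and 30% lower). Creb3l1 was higher by a log2 of 3.21 (limma adjusted p = 0.000616), a call that held in every alternative run. Sec24d was 1.19 (limma adjusted p = 0.0362), and 0.66 with no call without Total tumor replicate 2. Kdelr3 was 1.34 (limma adjusted p = 0.0238), and 0.87 with no call without Total tumor replicate 1. After upper-quartile rescaling the split was 15 and 2, and after quantile normalization 12 and 3. Without Fibroblast replicate 1 it was 1 and 1, without Fibroblast replicate 2 it was 1 and 0, and without Total tumor replicate 1 it was 6 and 11. Under upper-quartile rescaling the log2 was 1.53 for Herpud1 and -0.72 for Asns, the second without a call.

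The Total tumor mean lay within the range of the sorted means for 27 of the 42 genes, above all of them for 10 and below all of them for 5 (64.3, 23.8 and 11.9%, against 67.9, 25.5 and 6.57% of all genes tested). No ER gene was called higher or lower in Total tumor than in all 3 sorted populations, where 0.158 and 0% of all genes met these rules. The sorted populations do not hold all cells of the tumor. The 7 neutrophil markers listed summed to 134 and 587 RPKM in Total tumor and to 82.9 and 72.2 RPKM in TAM. In LLC and Fibroblast they summed to 1.82 to 5.22 RPKM. Of 5 tested, 4 were called higher in TAM than in LLC and 4 higher than in Fibroblast. Against Total tumor, 1 was called higher and 3 lower in TAM.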

How the data were processed

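RNA from sorted cells and whole tumors (200 ng per library, poly(A)-primed) was sequenced in 50-bp reads, per the labels' protocols. The authors deposited 1 table of RPKM values per RefSeq transcript, with 31645 transcripts and 8 libraries. The submitters' processing notes name STAR, HOMER and the build mm9, without versions. How strand and multi-mapping reads were treated, and which reads entered the RPKM denominator, is not given in the sources used here. Left out were 3 transcripts that have no gene name (up to 0.00316% of a library's RPKM).

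From these values, log2(RPKM + 1) of 1 transcript per symbol, the one with the highest mean, was computed without rescaling. Genes that reached an RPKM of 1 in 2 or more libraries entered 1 limma fit (version 3.58.1, R 4.3.3) over all 8 libraries, with a variance trend and 4 residual degrees of freedom, and p-values were adjusted by Benjamini-Hochberg over 13311 genes at a threshold of 0.05. Fold changes on this scale understate changes of low genes. Depth was estimated from the spacing of low values, and since only 60.4 to 65.8% of these lay within 0.05 reads of whole numbers, no read counts were recovered. Python 3.11.15 with pandas 2.3.3, scipy 1.17.1 and matplotlib 3.10.9 handled tables, exact tests and plots. The fit and the motif search were tested on simulated data.

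The 42 genes, their roles and the further lists were chosen with earlier results of these data known. Of the further lists, up to 3 called genes per list and direction with the largest log2 difference and a mean of at least 10 RPKM were open to naming. Those rows, and the set lowest in TAM, were added after the values were seen. Alternatives were a pseudocount of 0.1 or 5, quantile normalization, upper-quartile rescaling, dropping the filter or raising it to an RPKM of 5, a lowess correction for transcript length, fitting each pair of groups alone, leaving out the variance trend, the replicate number as a block, the mean over transcripts and leaving out each library.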

Additional observations from a re-analysis of the deposited data

How the results depend on the processing

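The 12, 10 and 6 ER genes called for TAM against LLC, TAM against Fibroblast and Fibroblast against LLC held in every alternative for 5, 6 and 1 of them, and those called for TAM and Fibroblast against Total tumor for 4 of 7 and 1 of 8. With no filter, counts were 0 higher in TAM than in LLC, 1 higher in TAM than in Fibroblast and 2 higher in Fibroblast than in Total tumor, with 0 highest in TAM, 1 in Fibroblast and 1 in LLC. A pseudocount of 0.1 left 1 highest in Fibroblast. Upper-quartile rescaling gave 1 higher and 16 lower in TAM than in Fibroblast, 5 higher in TAM than in LLC, 9 higher and 0 lower in Fibroblast than in LLC, 5 higher in TAM and 15 higher in Fibroblast than in Total tumor, with 1 highest in TAM, 8 in Fibroblast and 0 in LLC. Quantile normalization gave 1 higher and 17 lower in TAM than in Fibroblast, 19 lower in TAM than in LLC, 5 higher in Fibroblast than in LLC, 1 higher and 11 lower in TAM than in Total tumor and 12 higher in Fibroblast than in Total tumor, with 1 highest in TAM and 4 in Fibroblast. Length correction gave 5 higher and 6 lower in Fibroblast than in LLC, 3 higher and 12 lower in TAM than in Total tumor, and 8 and 5 in Fibroblast than in Total tumor. A fit of only the groups compared gave 4 higher in TAM than in Fibroblast, 4 higher in TAM than in LLC, 6 higher and 7 lower in Fibroblast than in LLC, 4 lower in TAM and 1 higher in Fibroblast than in Total tumor, with 5 highest in LLC. The cause of these shifts was not tested.

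With the replicate number as a block, 1 was higher in TAM than in LLC and 1 lower in Fibroblast than in LLC, with 1 highest in TAM and 1 in LLC. The labels give the libraries of different groups no shared animal or batch. The differences between libraries 1 and 2 correlated at 0.162 to 0.274 over genes among TAM, Fibroblast and LLC, and at -0.361 to -0.179 between these and Total tumor, so not every pair was over 0.1 and the block is given here only. The block ended 4 gene calls and added 1.

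Leaving out 1 library assumes that a lone library varies like the other groups. It moved the counts higher and lower in TAM than in Fibroblast to 0 to 4 and 6 to 12, in TAM than in LLC to 0 to 5 and 6 to 15, in Fibroblast than in LLC to 1 to 5 and 0 to 8, in TAM than in Total tumor to 0 to 5 and 5 to 16, in Fibroblast than in Total tumor to 1 to 7 and 0 to 11, and in LLC than in Total tumor to 0 to 1 and 0 to 5. Those highest in TAM, Fibroblast and LLC ran from 0 to 3, 1 to 2 and 0 to 5, and those above all sorted populations in Total tumor from 0 to 3. Ssr4 in TAM minus Total tumor was 0.06, and -0.72 (limma adjusted p = 0.0394) without Total tumor replicate 1 and 0.84 without Total tumor replicate 2; the cause was not tested. With 2 libraries a group, no permutation test between 2 groups reaches a p under 0.05. Chac1 is listed at 0 in TAM.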
